A study of Homo sapiens with 17 samples.

Results

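The BRG1 and PBRM1 binding regions of thyroid cells given T3 were compared region by region. BRG1 (SMARCA4) is an ATPase motor of the SWI/SNF chromatin remodelling complexes, and PBRM1 is a subunit of 1 form of them, PBAF. Members were all regions of the deposited BRG1 and PBRM1 lists with T3 on chromosomes 1 to 22 and X, 55931 for BRG1 and 38132 for PBRM1, together 94063 of the 266724 regions in the 8 lists of the series. Another 70 and 110 regions on Y and unplaced contigs were left out. A region was classed by whether at least 1 bp of it overlapped a region of the other list, which gave 33982 BRG1 regions without PBRM1, 21949 BRG1 regions with PBRM1, 23583 PBRM1 regions with BRG1 and 14549 PBRM1 regions without BRG1.

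The cells were Nthy-ORI, a human line immortalised from normal thyroid epithelium, kept without hormone and then given 10 nM T3, the active thyroid hormone, or vehicle (NaOH). Labels of the libraries give 6 hours, while the protocol text also names a longer exposure. CUT&RUN, in which an antibody directs a nuclease to cut out the DNA around a bound protein, was run on nuclei of 500000 cells with antibodies to BRG1, PBRM1, ARID1A or thyroid hormone receptor beta (TRβ), with 2 libraries for each antibody and treatment. The 17 samples also include 1 IgG library, which was not analysed here. Each antibody and treatment had 1 deposited list, made by the irreproducible discovery rate (IDR) method from regions that both libraries ranked alike. With 1 list a group there was no replicate check of any difference between lists, nothing says that the libraries came from separate cultures, and read depth is not given in the sources used here. All intervals below are 95% intervals that cover counting error across regions, which are neither replicates nor independent of their neighbours.

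SWI/SNF complexes use ATP to slide or evict nucleosomes and so open DNA at promoters and enhancers. BRG1, or its relative BRM, is the motor of several assemblies: canonical BAF, which carries ARID1A or ARID1B; PBAF, which carries PBRM1, ARID2 and BRD7 in their place; and non-canonical BAF, which carries BRD9. PBRM1 has several bromodomains, which bind acetylated histones. In textbook terms BAF is found mostly at enhancers and PBAF more at promoters. Nuclear receptors such as TRβ recruit these complexes to their target genes.

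Promoters with 1 or both proteins in genes of the complex itself, and with neither in a thyroid lineage gene, set the classes side by side. The 300 bases from 250 before to 50 after the start of a gene are shown for 4 genes, from RefSeq on GRCh38.p14 and read 5′ to 3′ on the strand of the gene: SMARCA4 (chr19:10960780-10961079, plus strand), overlapped by both; BRD7 (chr16:50368939-50369238, minus strand), by PBRM1 alone; SMARCE1 (chr17:40647769-40648068, minus strand), by BRG1 alone; and NKX2-1 (chr14:36520183-36520482, minus strand), the gene of a thyroid lineage factor, by neither. Capitals mark each match, on either strand, to a GC box (GGGCGG, read as CCGCCC on the other strand) or to a CCAAT box (CCAAT, read as ATTGG on the other strand).
SMARCA4: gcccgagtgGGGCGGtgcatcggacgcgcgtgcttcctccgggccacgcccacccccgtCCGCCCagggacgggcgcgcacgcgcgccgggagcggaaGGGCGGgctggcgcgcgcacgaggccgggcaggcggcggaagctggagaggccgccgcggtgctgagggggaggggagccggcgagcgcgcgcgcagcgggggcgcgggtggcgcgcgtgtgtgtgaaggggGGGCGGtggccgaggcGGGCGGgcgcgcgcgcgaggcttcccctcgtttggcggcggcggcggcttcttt
BRD7: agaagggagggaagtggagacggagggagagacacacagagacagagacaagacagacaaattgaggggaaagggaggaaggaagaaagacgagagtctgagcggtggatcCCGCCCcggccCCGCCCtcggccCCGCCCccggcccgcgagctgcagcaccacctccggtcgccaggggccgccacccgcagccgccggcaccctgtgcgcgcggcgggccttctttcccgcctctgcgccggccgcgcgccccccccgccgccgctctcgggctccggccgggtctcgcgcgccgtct
SMARCE1: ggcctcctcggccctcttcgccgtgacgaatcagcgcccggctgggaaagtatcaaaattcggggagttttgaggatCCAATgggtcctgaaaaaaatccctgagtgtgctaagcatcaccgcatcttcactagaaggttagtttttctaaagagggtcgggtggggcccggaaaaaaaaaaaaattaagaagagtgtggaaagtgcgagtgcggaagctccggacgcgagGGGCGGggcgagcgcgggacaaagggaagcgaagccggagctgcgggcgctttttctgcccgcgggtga
NKX2-1: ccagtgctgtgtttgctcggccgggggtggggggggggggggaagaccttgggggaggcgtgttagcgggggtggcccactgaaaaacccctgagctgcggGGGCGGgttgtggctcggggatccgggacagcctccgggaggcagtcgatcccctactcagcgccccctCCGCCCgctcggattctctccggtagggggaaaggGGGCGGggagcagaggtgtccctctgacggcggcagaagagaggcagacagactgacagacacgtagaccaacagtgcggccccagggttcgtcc

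The SMARCA4 window was 81.3% G or C and held 5 GC boxes and 0 CCAAT boxes. The BRD7 window was 73.3% G or C with 3 GC boxes and 0 CCAAT boxes. The SMARCE1 window was 56.3% G or C with 1 GC box and 1 CCAAT box, and the NKX2-1 window was 69% G or C with 3 GC boxes and 0 CCAAT boxes. The shares of all promoters with these motifs are given with the promoter classes further on. A match is a string of letters and not a measured binding site.

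Overlap was unequal when seen from the 2 lists. Of the BRG1 regions 39.2% (38.8 to 39.6) overlapped a PBRM1 region, whereas 61.8% (61.4 to 62.3) of the PBRM1 regions overlapped a BRG1 region. The overlaps formed 26431 pairs. In 18557 BRG1 regions there was exactly 1 PBRM1 region, and in 3392 there were 2 or more, up to 14. Conversely 20949 PBRM1 regions met exactly 1 BRG1 region and 2634 met 2 or more, up to 5. The BRG1 region was the wider of the pair in 66.0% of pairs, the PBRM1 region lay wholly inside it in 41.4%, and the reverse held in 14%. The median overlap was 711 bp, and 2.91% of pairs shared under 100 bp. With a reciprocal overlap of 50% required, the shares were 21.1% of BRG1 and 31.0% of PBRM1 regions.

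The share of BRG1 regions with PBRM1 ran from 31.8% on chromosome X to 51.5% on chromosome 22. These chromosomes also had the fewest and the most PBRM1 regions per BRG1 region, 0.490 and 1.01. The share of PBRM1 regions with BRG1 ran from 52.4% on chromosome 21 to 69.3% on chromosome 3. A BRG1 summit without PBRM1 lay a median of 10782 bp from the nearest PBRM1 summit, and 18.9% lay within 2 kb of one. For PBRM1 summits without BRG1 the median distance to a BRG1 summit was 7317 bp, with 20.2% within 2 kb. Most regions of either class thus had no summit of the other protein within 2 kb. Within 10 kb there was one for 48.7% of BRG1 summits without PBRM1 and 57.3% of PBRM1 summits without BRG1.

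Regions in which the proteins overlapped were wider in both lists. Median widths were 1262 bp (quartiles 770 to 2030) for BRG1 with PBRM1 and 689 bp (470 to 1022) without it, a ratio of 1.83. For PBRM1 they were 968 bp with BRG1 and 648 bp without it, a ratio of 1.49. Regions of 4 kb or more numbered 1123 among BRG1 regions with PBRM1 and 82 among those without, against 140 and 4 for PBRM1. A wide region meets another more easily, so the rule itself uses width in part. Among BRG1 regions under 1 kb the share with PBRM1 was 24.8% and the width ratio 1.17.

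By width decile within its list, the share overlapping the other protein rose from 15.8% in the narrowest to 81.1% in the widest BRG1 regions. Among PBRM1 regions it rose from 42.8% to 93.2%. In each list the share was higher in every decile than in the one below.

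**Figure D1:**
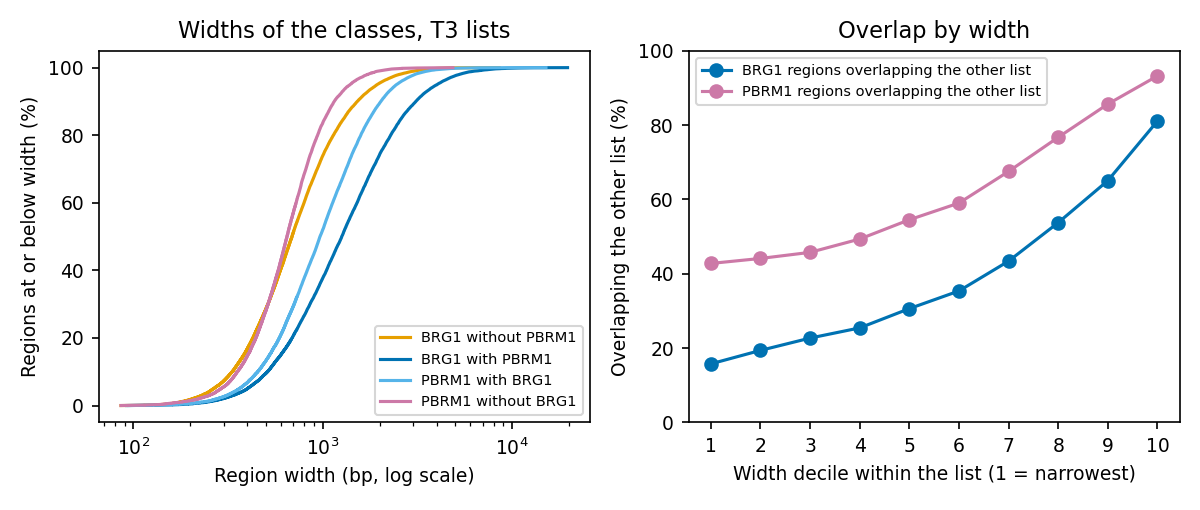
Left, cumulative share of regions (%) against region width (bp, log scale) for the 4 classes of the T3 lists. Right, share of regions overlapping the other list (%) in each width decile of its own list: it rises from 15.8% to 81.1% for BRG1 and from 42.8% to 93.2% for PBRM1.

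Overlapping regions also ranked higher by the authors' values. An IDR of at most 0.01 was listed for 84.1% of BRG1 regions with PBRM1 and 59.7% of those without, and for 72% of PBRM1 regions with BRG1 and 41.2% of those without. The authors' signal value, the sum over both libraries, had medians of 15 with and 10.1 without PBRM1 in the BRG1 list, and of 13.9 with and 10.7 without BRG1 in the PBRM1 list. Per kilobase of region the order turned: 12.1 with and 15.3 without PBRM1, and 14.8 with and 17 without BRG1. Library values of 10 or more carried over 6 digits in 83.8% (BRG1) and 58.8% (PBRM1) of cases in regions of 500 bp or more, and in 0 of 9 and 1 of 35 cases in regions under 300 bp. Extra digits can arise when the values of merged peaks are added, which was not tested. The signal value is used here only to rank and describe regions within a list.

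Summits, the listed peak positions, lay apart by a median of 342 bp (quartiles 138 to 738) in the 26431 pairs. They lay within 100 bp in 18.7% of pairs and within 500 bp in 62.8%. The distance followed the wider region of the pair: the median was 53 bp where it was under 500 bp, 175 bp from 500 to 1000 bp, 280 bp from 1 to 2 kb, 533.5 bp from 2 to 4 kb and 1388.5 bp at 4 kb or more. As a share of the wider region the median was 20.6% in all pairs and between 14.2% and 24.8% in these bins. In wide pairs the listed summits of BRG1 and PBRM1 thus lay far apart in bp. In regions of 4 kb or more the summits of the 2 libraries of 1 protein also lay apart, by medians of 410 bp (BRG1) and 785 bp (PBRM1).

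The listed summit is itself uncertain in wide regions. It fell between the summits of the 2 libraries in 97.9% of BRG1 and 95.5% of PBRM1 regions under 300 bp, but in 12.7% and 20.8% of those of 4 kb or more. In the 4724 pairs with both regions under 1 kb the BRG1 to PBRM1 distance was 164 bp by the listed summits and 202 to 209 bp by the summits of 1 library of each list. The 2 libraries of the same antibody lay 135 bp (BRG1) and 136 bp (PBRM1) apart in those pairs. The distance between proteins was larger than the distance between libraries of 1 protein, but the 2 distances have unlike bounds. Libraries of 1 protein share 1 listed region, whereas regions of the 2 proteins need overlap by only 1 bp.

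BRG1 and ARID1A summits with T3, measured the same way, lay closer together. Their median distance was 138 bp against 175 bp for BRG1 and PBRM1 in pairs with a wider region of 500 to 1000 bp, and 204 against 280 bp from 1 to 2 kb. Both comparisons share the BRG1 list, and the difference was not tested. Near gene ends, BRG1 and PBRM1 summits were 253 bp apart in pairs of 1 to 2 kb and 322 bp apart elsewhere.

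**Figure D2:**
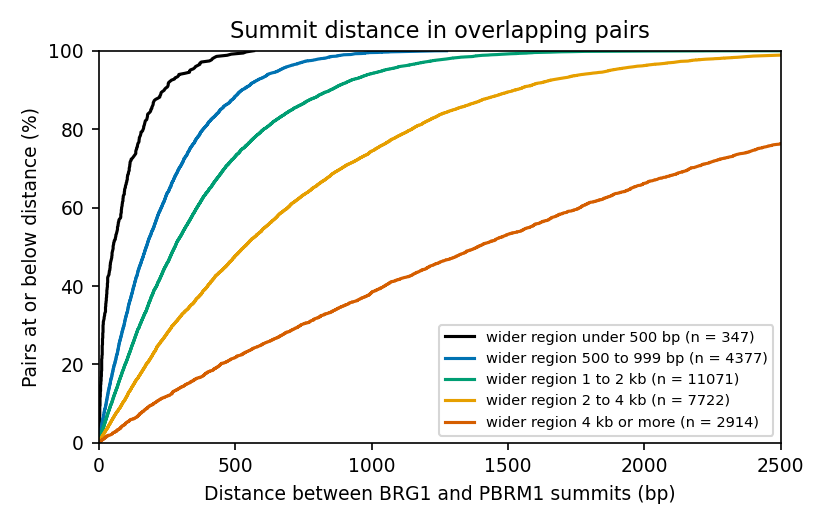
Cumulative share of overlapping pairs (%) against the distance between the BRG1 and PBRM1 summits (bp), by the width of the wider region of the pair. The curves order by width, with medians of 53 bp under 500 bp and 1388.5 bp at 4 kb or more.

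Position relative to genes separated the classes. A summit lay no more than 1 kb from either end of a gene, protein-coding or lncRNA, in 46.5% (45.9 to 47.2) of BRG1 regions with PBRM1 and in 11.4% (11.1 to 11.8) of those without. In the PBRM1 list the shares were 44.3% (43.6 to 44.9) with BRG1 and 19.2% (18.6 to 19.8) without. Median distances to the nearest end were 10139.5 bp for BRG1 without PBRM1, 1269 bp for BRG1 with PBRM1, 1572 bp for PBRM1 with BRG1 and 5743 bp for PBRM1 without BRG1. Summits over 25 kb from any end made up 28.0%, 11.8%, 12.6% and 18.3% of these classes in that order. Regions of each protein alone lay farther from gene ends than regions of both.

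The log2 odds ratio of lying at a gene end was 2.75 (2.69 to 2.81) for BRG1 regions with against without PBRM1. It was 2.70 within deciles of width, combined by the Mantel-Haenszel method. For PBRM1 regions with against without BRG1 it was 1.74 (1.67 to 1.81), and 1.18 within width deciles. The direction was the same on 23 of 23 chromosomes in both cases. None of these intervals includes 0.

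Width and gene ends went together differently in the classes. In BRG1 regions without PBRM1 the share at gene ends stayed between 9.45% and 12.8% over the 10 width deciles. In BRG1 regions with PBRM1 it rose from 36.8% in the narrowest to 56.1% in the eighth decile and was 42.1% in the widest. PBRM1 regions went from 18.4% to 62.2% with BRG1 and from 12.1% to 43.8% without. Wide BRG1 regions without PBRM1 were as rarely at gene ends as narrow ones, and wide PBRM1 regions were more often there whether or not BRG1 was listed.

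**Figure D3:**
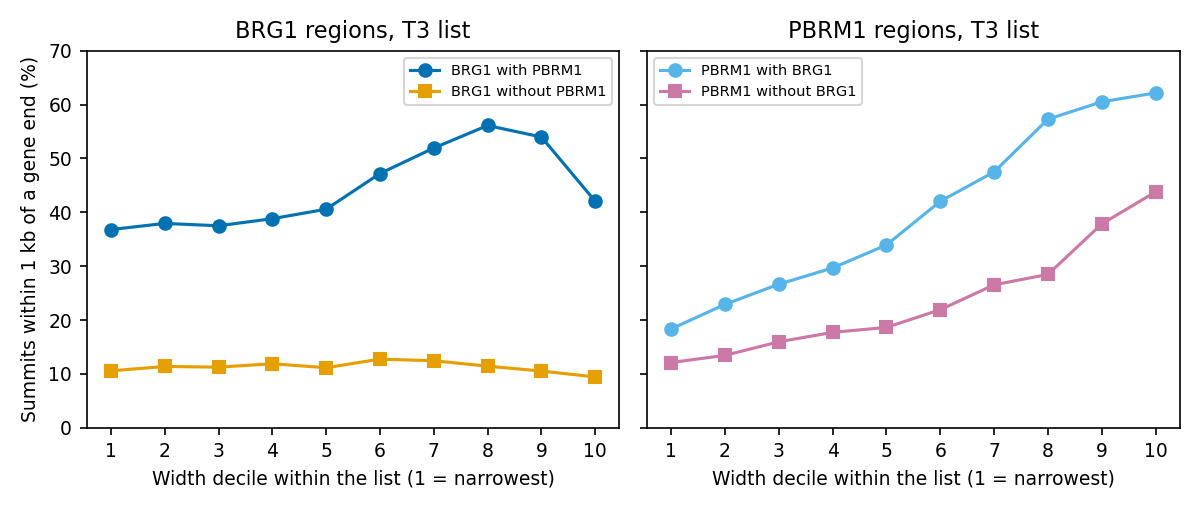
Share of summits within 1 kb of a gene end (%) in each width decile of the BRG1 list (left) and PBRM1 list (right), for regions with and without the other protein. BRG1 without PBRM1 stays between 9.45% and 12.8%, and the other 3 lines rise with width, BRG1 with PBRM1 as far as the eighth decile.

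Away from gene ends the classes differed less in whether they lay inside genes. Of summits over 1 kb from an end, 59.2% of BRG1 without PBRM1 lay inside a protein-coding gene, against 68.3% of BRG1 with PBRM1, 68.3% of PBRM1 with BRG1 and 65.0% of PBRM1 without BRG1. Whether these are exonic or intronic is not known here, because the gene table gives no exons.

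Transcription starts were known only for protein-coding genes with a RefSeq promoter window, of which there were none on chromosome 8. Within 1 kb of a start lay 5.58% of BRG1 summits without PBRM1, 39.1% with it, 37.0% of PBRM1 summits with BRG1 and 10.9% without. Of the summits within 2 kb of a start, the median position was 58 bp inside the gene for BRG1 without PBRM1, 84 bp for BRG1 with PBRM1, 152 bp for PBRM1 with BRG1 and 202 bp for PBRM1 without BRG1. The summit was on the gene side of the start in 53.9%, 59.7%, 69.4% and 66.7% of them.

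Of the overlapping pairs 9733 lay near a start, some of them sharing a region or a start. There the PBRM1 summit lay a median of 62 bp (quartiles -222 to 372) farther into the gene than the BRG1 summit, and farther in for 56.3% of pairs. The median was above 0 on 22 of 22 chromosomes. With summits of 1 library of each list it was 20 to 56 bp, 51.7% to 54.2% of pairs had PBRM1 farther in, and the median was above 0 on 17 to 21 of 22 chromosomes. The offset was small beside its own spread.

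**Figure D4:**
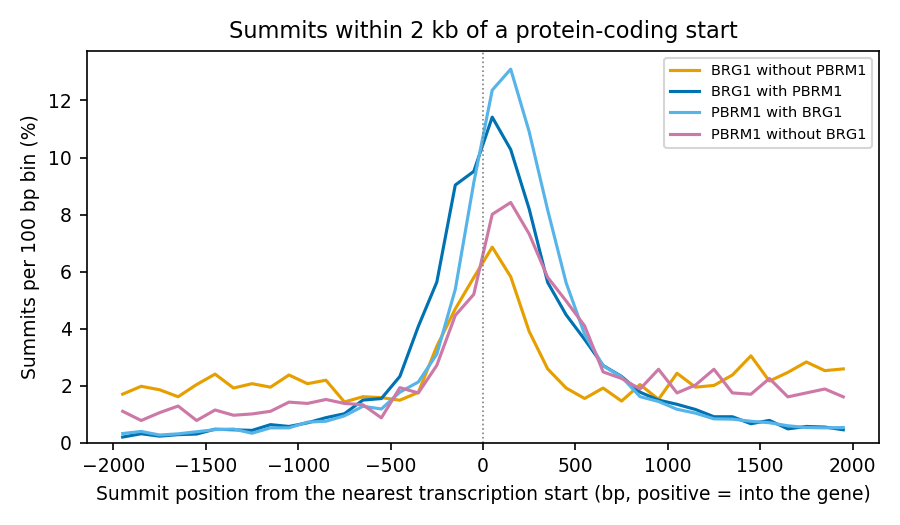
Share of summits (%) in 100 bp bins around the nearest protein-coding transcription start, among summits within 2 kb, for the 4 classes; positive positions (bp) lie inside the gene. PBRM1 with BRG1 centres at 152 bp and BRG1 with PBRM1 at 84 bp by their medians, and the classes of 1 protein alone have higher flanks and lower peaks.

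The promoter windows, 1 for each of 15812 of the 19974 protein-coding genes, were sorted by the regions that overlapped them. Genes without a window, which were not only those of chromosome 8, are not in these shares. Both proteins were at 7375 promoters (46.6%), BRG1 alone at 1363 (8.62%), PBRM1 alone at 1250 (7.91%) and neither at 5824 (36.8%). The median GC share was 67.3% with both, 60.0% with BRG1 alone, 69% with PBRM1 alone and 53% with neither. The CpG count over that expected from base composition had medians of 0.870, 0.781, 0.812 and 0.311 in the same order. Promoters of BRG1 alone were lower in GC than those of PBRM1 alone.

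A GC box, bound by SP and KLF factors, was present in 58.2% of all windows: 78.5% with both, 56.6% with BRG1 alone, 72.6% with PBRM1 alone and 29.8% with neither. Windows were also split into 3 groups of about equal size by GC share. Within the low, middle and high groups a GC box was in 30.7%, 64.6% and 92.5% of windows with BRG1 alone and in 29.9%, 57.6% and 90.9% with PBRM1 alone, so the order of these classes over all windows did not hold at like GC share. A CCAAT box, bound by NF-Y, was present in 36.4% of all windows, 42.5% with BRG1 alone, 36.9% with both, 37.3% with neither and 23.4% with PBRM1 alone. Within the GC groups CCAAT boxes were present in 46.7% (BRG1 alone) and 36.2% (PBRM1 alone) of the low, 43.0% and 27.6% of the middle and 32.4% and 18.1% of the high group. PBRM1-alone promoters had the lower share in each group.

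The other motifs were searched on both strands too, and most were rarer over all windows where either protein was listed than where neither was. The TATA box (TATAAA) was in 9.83% of all windows, 4.09% with both, 8.51% with BRG1 alone, 6.48% with PBRM1 alone and 18.1% with neither. An AP-1 motif (TGANTCA) was in 5.75% of all, 3.74%, 6.68%, 3.04% and 8.65%. The receptor motif AGGTCA was in 11.8% of all, 8.56%, 11.7%, 9.76% and 16.4%. A TEAD motif (GGAATG) was in 11.8% of all, 9.82%, 11.1%, 9.84% and 14.9%. The variant GGGTCA was an exception, at 14.3% of all windows and between 13.8% and 15.8% in the 4 classes. The order did not hold in each GC group. In the high group AP-1 was in 1.65% of windows with neither and 3.95% with BRG1 alone, AGGTCA in 7.74% with neither and 10.3% with BRG1 alone, and TATAAA in 2.47% with neither and 3.68% with PBRM1 alone. In the middle group GGAATG was in 13.5% with neither and 14.1% with PBRM1 alone.

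The remaining 6 lists of the series show how the same regions scored in other libraries. An ARID1A region with T3, the mark of canonical BAF, overlapped 71.9% of BRG1 regions with PBRM1 and 25.3% of those without, a log2 odds ratio of 2.92 (2.86 to 2.97) and of 2.17 within width deciles. PBRM1 regions overlapped ARID1A at 71.3% with BRG1 and 24.2% without. In the widest decile ARID1A was at 94.8% of BRG1 regions with PBRM1 and 79.3% of those without. Among BRG1 regions the BAF subunit was thus listed more often with PBRM1 than without it. PBRM1 regions without BRG1 had it at 24.2%, near the 25.3% of BRG1 regions without PBRM1.

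The PBRM1 list with vehicle was short, 9115 regions. It overlapped 30.7% of BRG1 regions with PBRM1 and 3.75% of those without, a log2 odds ratio of 3.51 (3.42 to 3.60) and of 3.0 within width deciles. It held 29.1% of PBRM1 regions with BRG1 and 7.44% of PBRM1 regions without BRG1. The BRG1 list with vehicle, 64289 regions, overlapped 92.7% of BRG1 regions with PBRM1, 66.4% of BRG1 regions without PBRM1, 93.2% of PBRM1 regions with BRG1 and 22.1% (21.4 to 22.8) of PBRM1 regions without BRG1. Some PBRM1 regions classed as without BRG1 had BRG1 listed in the vehicle libraries.

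TRβ with T3 overlapped 18.7% of BRG1 regions with PBRM1, 1.92% of BRG1 regions without it, 17.7% of PBRM1 regions with BRG1 and 2.30% of PBRM1 regions without it. The log2 odds ratio of BRG1 regions with against without PBRM1 was 3.55 (3.43 to 3.67), and 2.72 within width deciles. Near gene ends the shares were 26.5% with and 6.30% without PBRM1, and elsewhere 11.8% and 1.36%. TRβ with vehicle, a list of 1405 regions, overlapped 3.28% of BRG1 regions with and 0.203% without PBRM1, a log2 odds ratio of 4.05 and of 3.402 within width deciles. It overlapped 3.12% of PBRM1 regions with and 1.31% without BRG1, where the log2 odds ratio was 1.28, and 0.45 within width deciles. No other list overlapped 28.4% of BRG1 regions without PBRM1 and 49.2% of PBRM1 regions without BRG1, against 3.52% and 3.38% of the overlapping classes.

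Regions of 1 protein alone with the highest signal values were looked at by name. BRG1 without PBRM1 was led by a region of 7886 bp near MARCHF10 on chromosome 17 (library values 45.9 and 28.8), 13921 bp from the gene end. The next was a region of 6260 bp, 9703 bp from UHMK1 on chromosome 1 (47.7 and 25.9), and another of 6438 bp lay inside a gene 9954 bp from an end of UQCC1 on chromosome 20 (33.6 and 34.4). The other 3 of the first 6 had no protein-coding gene end within 25 kb. All 6 were also in the BRG1 vehicle list and both ARID1A lists, and 2 of the 6 were in the PBRM1 vehicle list.

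PBRM1 without BRG1 was led by a region of 2259 bp, 1012 bp from an end of RAPGEF1 on chromosome 9 (library values 32.0 and 11.7), the gene of a guanine nucleotide exchange factor. It was followed by regions near IQANK1 on chromosome 8 (23.2 and 17.2) and DACH1 on chromosome 13 (23.9 and 14.1). Next came an unnamed stretch of chromosome 21, 37031 bp from a protein-coding gene end (7.58 and 29.0). Regions near HR on chromosome 8 (15.4 and 21.0) and TCHH on chromosome 1 (13.5 and 22.6) followed. The HR summit lay 71 bp from a gene end. HR encodes a corepressor of nuclear receptors and is a known T3 target. Of these 6 regions 4 overlapped a BRG1 vehicle region. The values of the 2 libraries differed most at RAPGEF1 and on chromosome 21.

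The 6 BRG1 regions of the best ranks in both lists were very wide, apart from a very narrow one at ALLC. At AHNAK2 a BRG1 region of 13023 bp (rank 17 in its list) overlapped a PBRM1 region of 5863 bp (rank 16), with summits 5310 bp apart. At MYH9, the gene of non-muscle myosin heavy chain, the BRG1 region was 16038 bp and the PBRM1 region 3673 bp, and at AMIGO2 they were 11913 and 3682 bp. The widest BRG1 region was 19686 bp on chromosome 7, 174845 bp from a protein-coding gene end. It ranked 1 in the BRG1 list and 1281 by its best PBRM1 region. Another of the widest, 14984 bp, lay 8146 bp from an end of LFNG, a modifier of Notch.

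Pairs with summits within 10 bp of each other were picked separately, so their short distances follow from the choice. At ALLC a BRG1 region of 121 bp (library values 33.3 and 37.8) and a PBRM1 region of 215 bp (34.2 and 67.2) had summits 1 bp apart. At AVPI1 regions of 119 and 121 bp, at DONSON of 104 and 102 bp and at PPP5C of 98 and 100 bp had summits 3, 6 and 0 bp apart. These 4 were the best-ranked pairs with summits within 10 bp. All 4 were also in the BRG1 vehicle, both ARID1A and the TRβ T3 lists. Of them only ALLC was in all 8 lists. As an alternative, regions present in all 8 lists were left out, which kept 55767 of 55931 BRG1 and 37980 of 38132 PBRM1 regions. So few were dropped that the class shares could hardly move, and none moved beyond its interval.

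Genes were then assigned by summits within 5 kb of an end, for 19974 protein-coding genes. A gene counted under both proteins if any overlapping region was there: 11205 genes, 56.1% of all. Genes with BRG1 regions without PBRM1 and no PBRM1 region numbered 1495 (7.48%), genes with PBRM1 regions without BRG1 and no BRG1 region 1543 (7.73%), and 474 (2.37%) had separate regions of each. The other 5257 genes (26.3%) had no region of either. These shares are the background for the lists below, which are described by counts with no test.

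Among PBAF-specific subunit genes 3 of 4 had both proteins, namely PBRM1, ARID2 and PHF10, and BRD7 had PBRM1 alone. At the BRD7 start the PBRM1 region of 1202 bp ranked 2490 of its list with library values of 16.8 and 7.29, its summit 197 bp inside the gene end. A BRG1 region was listed there with vehicle. At PBRM1 itself the BRG1 region (5.07 and 5.06) and the PBRM1 region (7.32 and 7.29) had summits 160 bp apart. At ARID2 a BRG1 region of 5509 bp (21.6 and 17.3) covered a PBRM1 region of 2268 bp (10.1 and 13.6).

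Of 10 BAF and non-canonical BAF subunit genes 9 had both, and BRD9 had PBRM1 alone (7.23 and 9.67), in a region of 1900 bp that was in the BRG1 vehicle list and both ARID1A lists. At ARID1A a BRG1 region of 7656 bp (13.1 and 36.7) covered a PBRM1 region of 3177 bp, with summits 4132 bp apart. At ARID1B the PBRM1 region was the wider, 3880 bp (19.8 and 15.4) against 2210 bp (17.9 and 11.7). Of 14 ATPase and core subunit genes 12 had both. SMARCA4 had summits 8 bp apart, with BRG1 library values of 6.79 and 7.22 and PBRM1 values of 5.83 and 9.996. SMARCA2, the gene of BRM, had summits 1196 bp apart in a place that all 8 lists held. SMARCE1, a core subunit, had BRG1 alone (3.23 and 6.66) and SMARCD3 had PBRM1 alone (5.83 and 16.9).

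Thyroid lineage factor genes had both proteins in 4 of 5 cases. FOXE1, a forkhead factor, had a BRG1 region of 4531 bp (15 and 26.1, rank 770) and a PBRM1 region of 3944 bp (26.6 and 29.4) that ranked 24 of 38132. PAX8, a paired-box factor, had a pair of regions of 3650 and 3667 bp, with the PBRM1 region (14.3 and 21.6) at rank 332. GLIS3 had summits 7 bp apart, with a PBRM1 region of 1384 bp (10.2 and 8.05) and a BRG1 region of 597 bp (5.07 and 3.29). NKX2-1 had no region of either within 5 kb.

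Genes of thyroid hormone synthesis were spread over the classes. Of 10, 3 had both, 1 had BRG1 alone, 3 had PBRM1 alone, 1 had separate regions and 2 had none. TG, the gene of thyroglobulin, had a BRG1 region without PBRM1 (3.45 and 7.70) 3922 bp inside one of its ends. DUOX2, which makes the peroxide for hormone synthesis, and its maturation partners DUOXA1 and DUOXA2 had PBRM1 alone. At DUOX2 the PBRM1 values were 5.86 and 5.70, at DUOXA1 4.39 and 5.51, and no other list of the series had these 2 regions. SLC26A4, the iodide exporter pendrin, had both (BRG1 8.48 and 5.60, PBRM1 10.7 and 14.5). SLC5A5, the iodide importer, had a BRG1 region (3.62 and 3.38) and a separate PBRM1 region (4.40 and 5.22). TSHR, the receptor of thyrotropin, had both, with a BRG1 region of 1221 bp (5.18 and 8.51) over a PBRM1 region of 280 bp (6.59 and 3.26).

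Of 8 transport and deiodinase genes 5 had both. SLC7A5, a subunit of an amino acid carrier that also takes up thyroid hormone, had a BRG1 region of 4969 bp (20.1 and 27.3) over a PBRM1 region of 1887 bp (18.1 and 8.41). DIO3, which inactivates thyroid hormone, had PBRM1 alone (5.17 and 6.03), and DIO2 and SLCO1C1 had none. Receptor genes had both in 4 of 5 cases. At THRA the summits were 176 bp apart (BRG1 10.3 and 8.17, PBRM1 9.10 and 8.39) and at THRB, which encodes TRβ, 514 bp apart (BRG1 6.52 and 5.06, PBRM1 13.2 and 7.28). RXRA, a partner of TRβ, had BRG1 values of 5.33 and 10.6 and PBRM1 values of 20.2 and 10.8. RXRG had none.

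Of 16 known T3 target genes 12 had both and 4 had none (THRSP, PCK1, G6PC1 and RUNX2). KLF9, an early T3 target, had a BRG1 region of 2768 bp (15.6 and 10.7) over a PBRM1 region of 2301 bp (7.63 and 13.3). At DBP, a clock-output factor gene, the BRG1 region of 3897 bp had unlike library values of 33.8 and 5.91, over a PBRM1 region at 10.5 and 8.33. At SLC2A1, the gene of a glucose transporter, a BRG1 region (18.4 and 5.86) and a PBRM1 region (11.6 and 12.4) overlapped in a place that all 8 lists held. At FASN, the gene of fatty acid synthase, the PBRM1 region of 2593 bp was the wider, over a BRG1 region of 1401 bp.

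Coregulator genes had both in 13 of 14 cases, all but NCOA2. MED1, a Mediator subunit that binds nuclear receptors, had a BRG1 region of 3478 bp (13.1 and 18.4) over a PBRM1 region of 1877 bp (6.40 and 8.95). CREBBP, a histone acetyltransferase, had regions of 2836 and 2640 bp with summits 389 bp apart. HDAC3, the deacetylase of the NCOR complexes, had BRG1 values of 18.9 and 9.49 and PBRM1 values of 4.66 and 16.3.

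AP-1 factor genes had both in 12 of 13, all but BATF. FOSL2 had a PBRM1 region of 5305 bp (28.5 and 30.1) and JUN one of 4190 bp (16.8 and 25.8). MAFK had a BRG1 region of 9821 bp (38.3 and 36.04), 4906 bp from a gene end, and FOSL1 one of 5389 bp (20.8 and 28.3). Cyclin, CDK and E2F genes had both in 18 of 18, against 56.1% of all genes. CDK6 had a PBRM1 region of 5234 bp (27.5 and 21.8). CDKN1B, the gene of the CDK inhibitor p27, had a BRG1 region of 4592 bp and a PBRM1 region of 5578 bp (14.3 and 29.4) with summits 114 bp apart.

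TEAD and YAP pathway genes had both in 9 of 13 cases, BRG1 alone in 3 (TEAD2, ANKRD1 and LATS1) and none in 1 (WWTR1). At LATS1, a kinase that restrains YAP, the BRG1 values were 11.6 and 5.91, and at TEAD2 6.52 and 10.1. The LATS1 region overlapped a PBRM1 region in the vehicle list. AMOTL2, which binds YAP, had the pair with the highest PBRM1 signal of the list, a BRG1 region of 6829 bp (22.6 and 19.8) and a PBRM1 region of 5805 bp (18.3 and 37.8). AJUBA, a LIM protein of the pathway, had a PBRM1 region of 3242 bp (17.6 and 14.7).

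Epithelial junction and keratin genes had both in 13 of 15. KRT7, a simple-epithelium keratin, had a BRG1 region of 6675 bp (27.9 and 24.9) and a PBRM1 region of 4435 bp (14.6 and 33.4). CLDN1, a tight junction gene, had summits 120 bp apart with BRG1 values of 15.4 and 15.5 and PBRM1 values of 10.5 and 9.78. CDH1, the gene of E-cadherin, had BRG1 alone (4.84 and 4.99) at 4894 bp from an end, and CLDN7 had PBRM1 alone (4.92 and 3.92). Mesenchymal and matrix genes had both in 14 of 16. FN1, the gene of fibronectin, had a BRG1 region of 6098 bp (30.3 and 29.5) and a PBRM1 region of 1189 bp (9.91 and 11.1). TGFBI, a matrix protein gene induced by TGF-beta, had a BRG1 region of 3497 bp (26.2 and 16.5) and a PBRM1 region of 2737 bp (14.02 and 21.5). SNAI2 had BRG1 alone (5.42 and 5.47) and COL1A2 had none.

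Ribosomal protein, glycolysis and hypoxia, and interferon and JAK-STAT lists had both proteins more often than the 56.1% of all genes. Cytosolic ribosomal protein genes had both in 19 of 22, with separate regions at RPL11 and RPS3. At RPS19 the PBRM1 region of 1543 bp (11.2 and 13.8) was wider than its BRG1 region of 706 bp (6.23 and 5.20). Glycolysis and hypoxia genes had both in 17 of 20, with BRG1 alone at GPI, PBRM1 alone at CA9 and separate regions at HK1. At VEGFA, an angiogenic factor gene, the BRG1 region of 6467 bp and the PBRM1 region of 3197 bp overlapped all other lists as well. PGAM1, a glycolytic enzyme gene, had summits 107 bp apart, with BRG1 at 29.5 and 21.9 and PBRM1 at 8.16 and 15.9. Interferon and JAK-STAT factor genes had both in 13 of 14, with BRG1 alone at IRF9. SOCS3, a feedback inhibitor of cytokine signalling, had a BRG1 region of 9312 bp (25.8 and 34.4) and a PBRM1 region of 3306 bp (19.1 and 25.4).

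Proteasome core subunit genes had both in 8 of 14, near the background share. PSMA4, PSMB6 and PSMB7 had BRG1 alone, PSMA1 and PSMB1 PBRM1 alone, and PSMA6 none. The PBRM1 regions at PSMA1 and PSMB1 each overlapped a BRG1 vehicle region. PSMA7 had a PBRM1 region of 3703 bp (10.3 and 20.9) over a BRG1 region of 1088 bp (4.45 and 10.2).

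Markers of blood, muscle, and C cell and parathyroid types were mostly without both proteins. Blood cell markers had both in 1 of 12 (CD79A), BRG1 alone in 2 (CD14 and SPI1) and none in 9. Skeletal and heart muscle markers had both in 0 of 12, BRG1 alone at CKM, PBRM1 alone at ACTA1 and ACTC1, separate regions at TNNT2 and TNNI3 and none in 7. C cell and parathyroid markers had both in 1 of 8 (CHGB), BRG1 alone at GCM2, PBRM1 alone at CHGA and none in 5. Neuronal markers had both in 6 of 12, near the background share of 56.1%. They had PBRM1 alone at RBFOX3, separate regions at GRIN1 and none in 4 (NEFL, NEFM, STMN2 and ELAVL4). Of a short set of thyroid and epithelial markers, as far as described here, NKX2-1 had neither protein and TG had BRG1 alone. PAX8, FOXE1, TSHR, EPCAM, KRT8 and KRT18 had both. Outside this set, CDH1 had BRG1 alone, CLDN7, DUOX2, DUOXA1 and DUOXA2 had PBRM1 alone, and SLC5A5 had separate regions. Both proteins were at 3 of 10 hormone synthesis genes and 13 of 15 epithelial junction and keratin genes, against 14 of 16 mesenchymal and matrix genes.

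**Figure D5:**
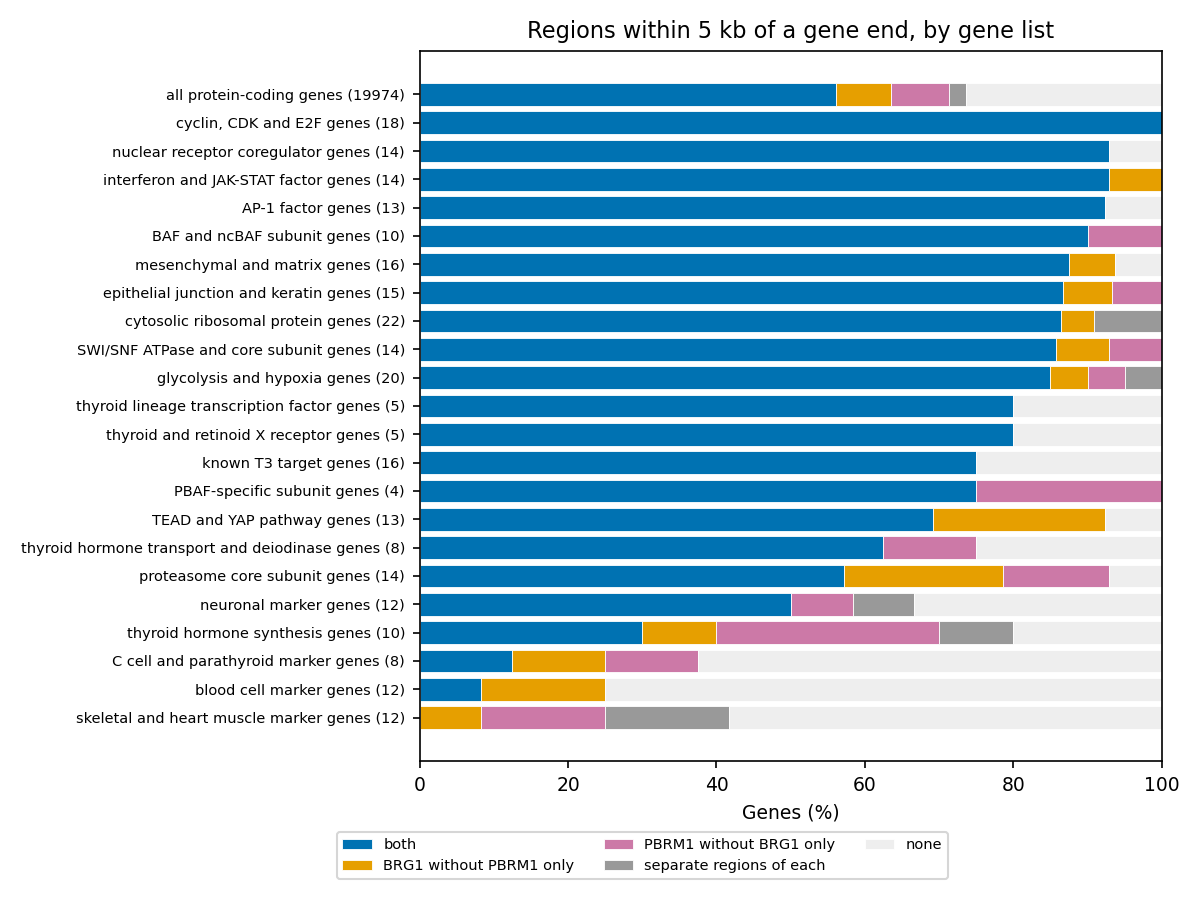
Share of genes (%) of each list, with its number of genes in brackets, by the regions within 5 kb of a gene end: overlapping BRG1 and PBRM1, BRG1 alone, PBRM1 alone, separate regions of each, or none. All protein-coding genes (top) have 56.1% with both; cyclin, CDK and E2F genes have 18 of 18 and muscle markers 0 of 12.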

How the data were processed

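The deposited lists hold CUT&RUN regions of build hg38 in the layout of the IDR method, 1 list from the 2 libraries of a group. CASAVA 1.7, Trim Galore, Bowtie2 and MACS2 are listed in the submitters' processing notes, without roles or parameters. In the files as deposited, an interval is the union of those of the 2 libraries, the signal value is the sum of theirs, and a further column is −log10 of the IDR, which reached 0.05 at most. Which column belongs to which numbered replicate, whether IgG was a control and how many reads were made is not stated.

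Summits are the region start plus the deposited offset. Gene ends and promoter windows came from RefSeq tables of GRCh38.p14 (38151 protein-coding and lncRNA genes; 15812 promoter windows, 1 per gene, none on chromosome 8). All 275 list entries, 273 distinct genes in 22 lists, matched by symbol. Shares have exact Clopper-Pearson intervals, and log2 odds ratios have Woolf intervals with 0.5 added to each cell, called where 0 lies outside, also combined over 10 width bins (Mantel-Haenszel). No p-values were computed. The counting was tested on simulated lists. Members, lists and named genes were chosen with earlier results of these data known. Named genes were 15 fixed genes, the 6 regions per class of highest signal or rank, the 4 widest, the 4 best-ranked pairs with summits within 10 bp, and up to 2 genes per list and class. Other list members are named where a count was 5 or fewer, which was decided with their values seen. Some genes that this rule names are left out of the text. Software versions were matplotlib 3.10.9, scipy 1.17.1, pandas 2.3.3, numpy 2.4.6 and Python 3.11.15. Alternatives, with those added after seeing the data named, are in the closing section.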

Additional observations from a re-analysis of the deposited data

How the results depend on the processing

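The share of BRG1 regions with PBRM1 (39.2%), the share of PBRM1 regions with BRG1 (61.8%), the median summit distance (342 bp) and the width ratio (1.83) depended on the settings, in that order as follows. They were 37.9%, 67.5%, 357 bp and 1.65 at an IDR of at most 0.01. With lists of equal length they were 47.9%, 55.3%, 357 bp and 1.60. A reciprocal overlap of 50% gave 21.1%, 31.0%, 201 bp and 1.73, and a tolerated gap of 500 bp 45.8%, 66.5%, 505 bp and 1.65. Windows of 250 bp on each side of the summit gave 29.5%, 42.9%, 186 bp and 1.63. Describing only regions under 1 kb, added after seeing the data, gave 24.8%, 50.2%, 164 bp and 1.17. With the intervals of 1 library they ranged over 38.1% to 38.5%, 60.9% to 61.0%, 406 to 435 bp and 1.98 to 2.06. With the summits of 1 library of each list, also added after seeing the data, the distance ranged over 419 to 449 bp. These values move with widths, list lengths and the overlap rule by construction.

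The 4 log2 odds ratios kept their direction and an interval without 0 in every alternative run, including the added use of start sites for gene ends. The ratio at gene ends ranged over 2.13 to 3.44 (BRG1 with against without PBRM1) and -2.27 to -1.18 (PBRM1 without BRG1 against with) in 14 alternatives each. Overlap with ARID1A T3 ranged over 2.17 to 2.96 and with PBRM1 vehicle over 2.15 to 3.69 in 10 each. Gene counts per class stayed within 1.5 times with windows of 1 and 25 kb and an IDR of at most 0.01, but some came near that limit. Genes with BRG1 alone went from 1495 to 2150 at the stricter IDR. Genes with PBRM1 alone went from 1543 to 1047 with the 25 kb window. No paired analysis was possible because each group has 1 list and no result comes from a test over samples. The depth of the libraries is unknown, so a protein not listed in a region may have been missed there.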
